A study of Mus musculus with 6 samples.

Results

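Mouse genes whose symbol is Zfp followed by a number encode zinc finger proteins, and 127 of them were followed here through the response of peritoneal macrophages to lipopolysaccharide (LPS, a component of the bacterial cell wall). The array annotation gave 304 genes such a symbol from 574 probe sets, with Zfp36, an RNA-binding protein of another zinc finger class, left out. A gene was represented by its probe set of highest mean, and it was kept if any of the 6 arrays reached that array's 75th percentile over all 45101 probe sets. The 127 genes stand beside 18194 genes on the array, of which 13587 reached an array median on at least 1 array and were tested. The rule used levels and no fold change, but any 1 array could bring a gene in, so 13 genes entered through 0 h arrays alone, 9 through LPS arrays alone and 7 through KO arrays alone.

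Macrophages were drawn into the abdominal cavity by an injection of thioglycollate, a sterile irritant, in mice of 2 genotypes on the same mixed background, C57BL/6 x 129Sv. One genotype was wild-type and the other LysM-Cre+;Akirin2fl/fl, called Akirin2 KO here, in which Cre under control of the lysozyme gene removes Akirin2, a gene for a small nuclear protein, from myeloid cells but not from other cells of the exudate. Macrophages of each genotype were left unstimulated (0 h) or received 100 ng/ml LPS for 2 or 4 h, and total RNA of each of the 6 conditions was run on 1 Affymetrix array. No condition has a replicate, and the labels give neither the number of mice per sample nor whether the samples of 1 genotype share mice.

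Most proteins of this name carry tandem C2H2 zinc fingers, small loops held by a zinc ion, each of which can contact a few bases of DNA. Many also carry a KRAB domain, which recruits the corepressor TRIM28 and through it the histone methyltransferase SETDB1, and such proteins are known for silencing transposable elements and for lying in clusters of duplicated genes. The name is given for the fingers and not for a function, so the group also holds RNA-binding proteins, ubiquitin ligases and activators of transcription.

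The cells carried the macrophage transcripts Csf1r (log2 level 12.5 to 12.7), Lyz2 (12.01 to 12.20) and Cd68 (10.6 to 10.9), while the probe set of Itgam, the gene for CD11b, stayed near background (3.06 to 3.47). Akirin2 read 7.33 to 7.47 on the wild-type arrays and 4.91 to 5.54 on the KO arrays. The wild-type 0 h array stood apart: its 75th percentile was 4.40 against 4.29 to 4.36 on the others, and its median over the tested genes 4.41 against 4.24 to 4.35. Centring each array on that median moved the median step of all genes by 0.15 at 2 h and 0.17 at 4 h in wild-type, so counts, medians and calls that rest on this array are also given without it or with arrays centred. Of 10 macrophage markers in the annotation all 10 were above the floor. Of 7 neutrophil markers 4 were, and their summed log2 level went from 8.41 at 0 h to 8.94 and 9.33 after LPS in wild-type and from 8.50 to 8.77 and 9.17 in KO, carried by S100a8, while S100a9 went from 6.65 to 6.56 and 6.09 in wild-type and from 6.70 to 6.44 and 6.34 in KO, and Camp, Ngp, Ltf and Cxcr2 stayed below 3.50 on every array. The summed level of 6 B cell markers went from 7.07 to 6.72 and 6.74 in wild-type and from 7.25 to 6.46 and 6.71 in KO, with Pax5 near background. The part of these markers in the results was not tested, and in such bulk samples fewer cells of a type and less RNA per cell cannot be told apart.

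More genes of this group fell than rose past the limma threshold after 2 h of LPS in the fit of all 6 arrays. With arrays centred the falling genes no longer outnumbered the rising ones. Without the wild-type 0 h array most of these falls no longer passed the threshold. Coefficients at 2 h still lay below 0 for 59.1% of the group without that array (49.8% of all tested genes). With arrays centred they did for 64.6% (45.7% of all). Of the 127, 14 (11%) fell and 8 (6.30%) rose at 2 h, where 2.89% and 3.96% of all tested genes did (limma over both genotypes, adjusted p under 0.05). At 4 h 13 (10.2%) fell and 7 (5.51%) rose, where 7.61% and 7.76% of all tested genes did. A gene had to reach the level cut to be counted, and over the 7540 genes of any name past that cut 4.81% fell and 7% rose at 2 h, and 12.4% and 13.4% at 4 h. The share that fell at 2 h therefore lay above both backgrounds, whereas at 4 h it lay above the share of all tested genes and below the share of genes past the cut. Of the 268 Zfp genes that reached an array median, the floor of the tested genes, 8 rose and 14 fell at each time. On that floor the share that fell at 4 h lay below the 7.61% of all tested genes. The genotypes served as replicates of the LPS step, so an adjusted p measures how alike the step was in both.

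The count of falling genes leaned on the wild-type 0 h array. Without that array, an alternative added after the data were seen, 6 genes fell at 2 h (Zfp101, Zfp251, Zfp398, Zfp563, Zfp788 and Zfp982), of which 4 were among the 14, and 14 fell at 4 h, of which 8 were among the 13. These were 4.72% and 11% of the group, beside 2.68% and 6.68% of all tested genes in that fit. The falls no longer past the threshold were those of Zfp40, Zfp157, Zfp292, Zfp386, Zfp472, Zfp512, Zfp688, Zfp763, Zfp809 and Zfp932 at 2 h (10 genes) and of Zfp266, Zfp386, Zfp763, Zfp825 and Zfp839 at 4 h (5 genes), all still below 0. The same 8 genes rose at 2 h with and without it (4.65% of all tested genes without it), and 8 rose at 4 h (9.01%), of which 6 were among the 7. With each array centred, 8 genes rose and 8 fell at 2 h (backgrounds of 3.98% and 1.87%), and 7 rose and 7 fell at 4 h (7.65% and 6.51%). The 8 that fell at 2 h after centring (Zfp101, Zfp157, Zfp251, Zfp398, Zfp512, Zfp688, Zfp763 and Zfp932) were all among the 14. In the fit without the wild-type 0 h array, the KO 0 h array alone stands for 0 h. Of the genes that fell in that fit, Zfp93, Zfp820, Zfp934 and Zfp982 entered the group through the KO 0 h array alone. Zfp688 and Zfp788 entered through 0 h arrays alone. The level cut favoured their falls, so the shares of that fit beside all tested genes are no support for a fall of the group.

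**Figure D1:**
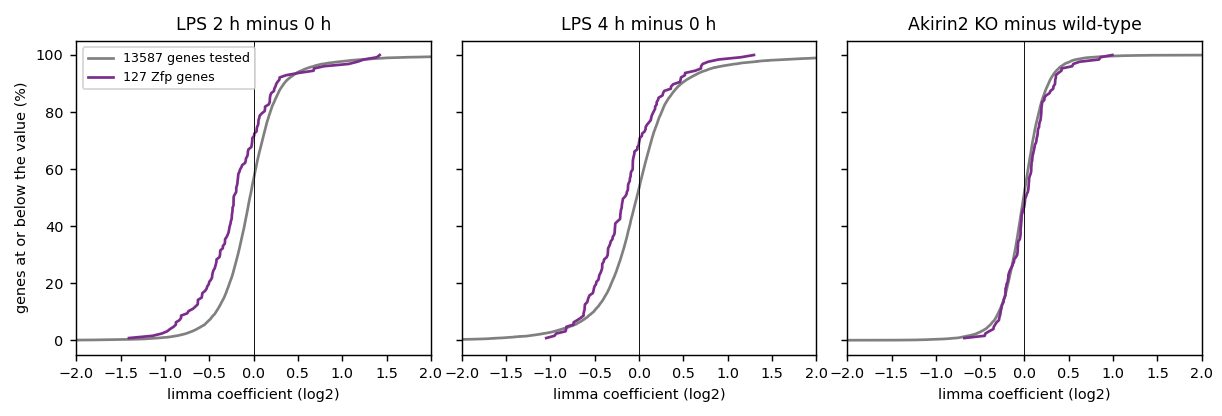
Share of genes at or below each limma coefficient (log2) for the 127 Zfp genes (purple) and the 13587 tested genes (grey), for LPS at 2 h, LPS at 4 h, and Akirin2 KO minus wild-type over the 3 times. The purple curve lies to the left of the grey one over most of its range at 2 h (median -0.22 against -0.04) and less so at 4 h (-0.16 against -0.03), and the curves nearly coincide for genotype (0.02 against -0.01).

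The lower values were not limited to the genes that passed the threshold. The median coefficient of the 127 genes was -0.22 at 2 h and -0.16 at 4 h, beside -0.04 and -0.03 for all tested genes. Over the 268 Zfp genes that reached an array median, the floor of the tested genes, the medians were nearer to these, at -0.14 and -0.08. At 2 h 70.9% of the group had a coefficient below 0, against 56.4% of all tested genes, and at 4 h 69.3% against 53.2%. With arrays centred the medians were -0.16 and -0.12, beside 0.03 and 0.01 for all genes. Without the wild-type 0 h array they were -0.07 at 2 h and -0.03 at 4 h, beside 0.00 and 0.02 for all genes, and 59.1% and 52.8% of the group lay below 0, against 49.8% and 48.3%. Both 0 h arrays lay above both 2 h arrays for 54 genes of the group (42.5%, against 25.8% of all) and below both for 17 (13.4%, against 19.1%). For 4 h the numbers were 45 (35.4%, against 26.8%) and 22 (17.3%, against 23.3%). The KO 0 h array alone lay above both 2 h arrays for 65 genes (51.2%, against 38.8% of all) and below both for 38 (29.9%, against 36.5%), and for 4 h the numbers were 56 (44.1%, against 38.2%) and 41 (32.3%, against 38.5%).

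A call at 2 h, at 4 h or at both was made for 29 genes of the group. Of these 5 rose at both (Zfp131, Zfp263, Zfp275, Zfp516 and Zfp800), 3 at 2 h only by the test (Zfp410, Zfp658 and Zfp719) and 2 at 4 h only (Zfp407 and Zfp598). The genes that fell at both times were Zfp40, Zfp101, Zfp292, Zfp386, Zfp398, Zfp688, Zfp763 and Zfp788, 8 in all. A further 6 fell at 2 h (Zfp157, Zfp251, Zfp472, Zfp512, Zfp809 and Zfp932) and 5 at 4 h (Zfp52, Zfp266, Zfp469, Zfp825 and Zfp839). The remaining 98 passed the threshold at neither time. Shares of all tested genes were worked out for each time alone and not for both times joined. The counts of this paragraph therefore only sort the genes by course and are no result about the group.

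**Figure D2:**
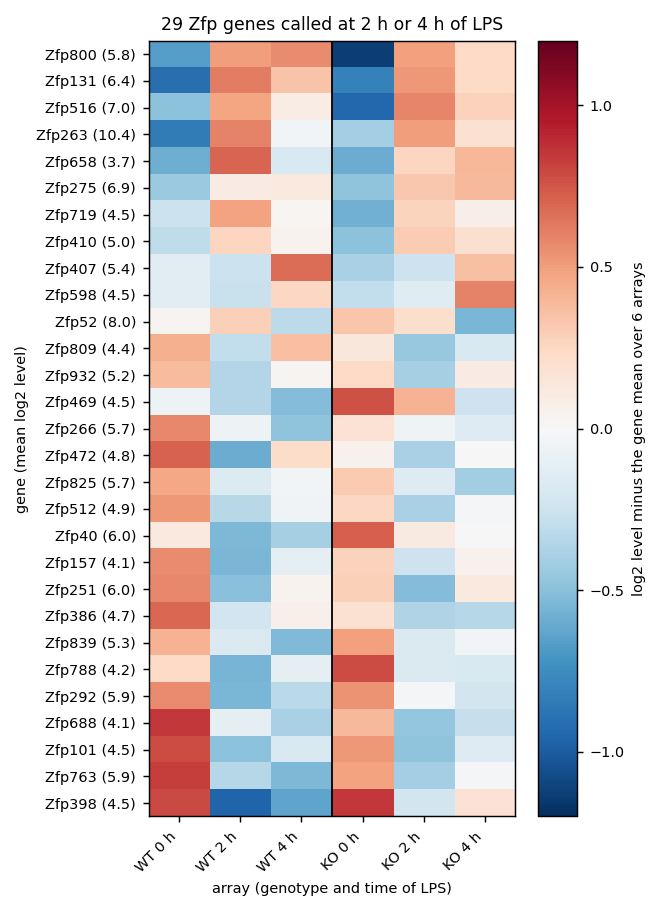
Log2 level of the 29 Zfp genes past the limma threshold at 2 h or 4 h on each of the 6 arrays, as the difference from the gene's own mean (given in brackets, log2), ordered by the sum of both LPS coefficients. Genes at the top are blue at 0 h and red after LPS in both genotypes, and genes at the bottom the reverse. Zfp469 and Zfp40 also differ between genotypes at 0 h.

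Zfp131, a BTB-domain zinc finger transcription factor, had the largest coefficient at 2 h. It read 5.46 at 0 h, 6.98 at 2 h and 6.70 at 4 h in wild-type cells, and 5.55, 6.88 and 6.60 in KO. Both 0 h arrays lay more than 1 log2 unit below every LPS array. The coefficient was 1.42 at 2 h (SE 0.15, limma adjusted p = 0.000914), a 2.68-fold rise, and 1.15 at 4 h (adjusted p = 0.00124). Zfp800 read 5.12, 6.28 and 6.35 in wild-type cells and 4.65, 6.27 and 6.02 in KO, again with no overlap between 0 h and LPS. It rose by 1.39 at 2 h (SE 0.17, adjusted p = 0.00179) and by 1.30 at 4 h (adjusted p = 0.00115). Its other probe set above background read 4.83, 6.04 and 5.67 in wild-type against 4.64, 5.89 and 5.56 in KO, a mean step of 1.23 at 2 h. Zfp131 and Zfp800 were the genes of the group at least 2-fold higher in both genotypes at 2 h and at 4 h (1.57% of the group at each time, beside 1.77% and 2.77% of all tested genes).

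Zfp263, whose protein has a SCAN domain and a KRAB domain beside its fingers, read 9.58 at 0 h, 11.02 at 2 h and 10.40 at 4 h in wild-type cells and 10.02, 10.92 and 10.60 in KO. The LPS arrays all lay above the 0 h arrays, with the 2 h array highest in each genotype. It rose by 1.17 at 2 h (SE 0.17, adjusted p = 0.00493) and by 0.70 at 4 h (adjusted p = 0.027). A second probe set of Zfp263 gave larger steps, from 4.57 to 6.64 and 5.95 in wild-type and from 4.87 to 6.39 and 6.05 in KO. Without the wild-type 0 h array the 4 h coefficient of 0.51 no longer passed the threshold.

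Zfp516, known as a partner of PRDM16 in brown fat, read 6.49, 7.45 and 7.07 in wild-type against 6.04, 7.56 and 7.25 in KO. It rose by 1.25 at 2 h (SE 0.19, adjusted p = 0.0057) and by 0.90 at 4 h (adjusted p = 0.0134), and the step was larger in KO (1.53 at 2 h) than in wild-type (0.97). The probe set read here is of a class that may bind related transcripts. Its second probe set stayed between 2.74 and 3.30 and gave a step of 0.31, and without such probe sets Zfp516 passed at neither time (0.31 and 0.12). Zfp275 read 6.42, 6.97 and 6.98 in wild-type cells and 6.38, 7.19 and 7.26 in KO, with coefficients of 0.68 (adjusted p = 0.0386) and 0.72 (adjusted p = 0.016).

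The genes that rose at 1 time by the test differed in their course. Zfp410, an activator known for its control of Chd4, read 4.73, 5.30 and 5.08 in wild-type against 4.55, 5.34 and 5.24 in KO, with a coefficient of 0.68 at 2 h (adjusted p = 0.0379) and 0.52 at 4 h (adjusted p = 0.0599). The 2 h call was lost without probe sets that may cross-hybridise (0.45) and with probe sets averaged (0.34). Chd4 itself, a remodeller of the NuRD complex, read 5.38, 5.57 and 5.69 in wild-type cells and 5.02, 5.40 and 5.54 in KO and passed no threshold (0.29 and 0.42). Zfp658 was near background at 0 h (3.15 in both genotypes) and read 4.44 and 3.56 in wild-type against 4.00 and 4.14 in KO after LPS. It entered the group through the wild-type 2 h array alone.

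Zfp407, known for supporting PPARγ target genes in adipocytes, was late. It read 5.23 and 5.11 at 0 and 2 h and 6.04 at 4 h in wild-type cells, and 4.98, 5.12 and 5.73 in KO. Its 4 h coefficient was 0.78 (SE 0.16, adjusted p = 0.0107), and it was the gene of the group that differed between 4 h and 2 h (0.77, adjusted p = 0.042). That call was lost with probe sets averaged (0.28), quantile normalization again (0.75) and arrays centred (0.74), and the 4 h call with probe sets averaged (0.38). Zfp598, a ubiquitin ligase that senses collided ribosomes, was also flat at 2 h and higher at 4 h, at 4.33, 4.20 and 4.72 in wild-type against 4.17, 4.32 and 5.06 in KO (4 h coefficient 0.63, adjusted p = 0.0374). Between 4 h and 2 h, 1 of 127 genes rose and 0 fell, beside 1.56% and 1.11% of all tested genes; 17 genes of the group had an unadjusted p under 0.05, and limma with a trend and robust prior counted 3 and 2.

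Zfp398, whose human counterpart interacts with the oestrogen receptor, fell furthest at both times. It read 5.24 at 0 h, 3.49 at 2 h and 3.82 at 4 h in wild-type cells, and 5.30, 4.24 and 4.63 in KO. The 0 h levels of the genotypes were alike and all 4 LPS arrays lay below them, those of wild-type lower than those of KO. The coefficient was -1.41 at 2 h (SE 0.20, adjusted p = 0.00471), a 2.65-fold fall, and -1.05 at 4 h (adjusted p = 0.00965). Its second probe set read 3.83, 4.07 and 3.11 in wild-type against 4.65, 3.68 and 3.32 in KO. At 2 h it was higher than at 0 h in wild-type and lower in KO (mean step -0.37), and at 4 h it was lower in both (-1.03). With probe sets averaged Zfp398 passed at neither time.

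Zfp101 read 5.26, 3.99 and 4.30 in wild-type cells and 5.005, 4.00 and 4.32 in KO, nearly the same in both genotypes after LPS. It fell by 1.14 at 2 h (SE 0.15, adjusted p = 0.00334) and by 0.82 at 4 h (adjusted p = 0.00815), and its second probe set by a mean of 0.70 and 0.72. Zfp101 and Zfp398 were the genes of the group at least 2-fold lower in both genotypes at 2 h (1.57%, beside 0.545% of all tested genes), and 0 were at 4 h (1.78% of all).

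Zfp763 read 6.77, 5.60 and 5.40 in wild-type against 6.43, 5.53 and 5.93 in KO. It fell by 1.04 at 2 h (adjusted p = 0.023) and by 0.93 at 4 h (adjusted p = 0.019), but neither passed without the wild-type 0 h array (-0.75 and -0.65), and its second probe set stayed between 2.70 and 3.19. Zfp292, a large protein known to act on growth hormone expression, read 6.51, 5.39 and 5.61 in wild-type cells and 6.48, 5.92 and 5.71 in KO. Its coefficients were -0.83 at each time, with the steeper step at 2 h in wild-type, and a second probe set gave -0.88 and -0.57. Without the wild-type 0 h array the 2 h coefficient was -0.66 (adjusted p = 0.0757), and with arrays centred -0.77, neither past the threshold. Zfp688 read 4.98, 4.03 and 3.75 in wild-type against 4.53, 3.67 and 3.86 in KO, lower on every LPS array than on either 0 h array. Its 2 h coefficient of -0.90 became -0.74 without the wild-type 0 h array (adjusted p = 0.0519).

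**Figure D3:**
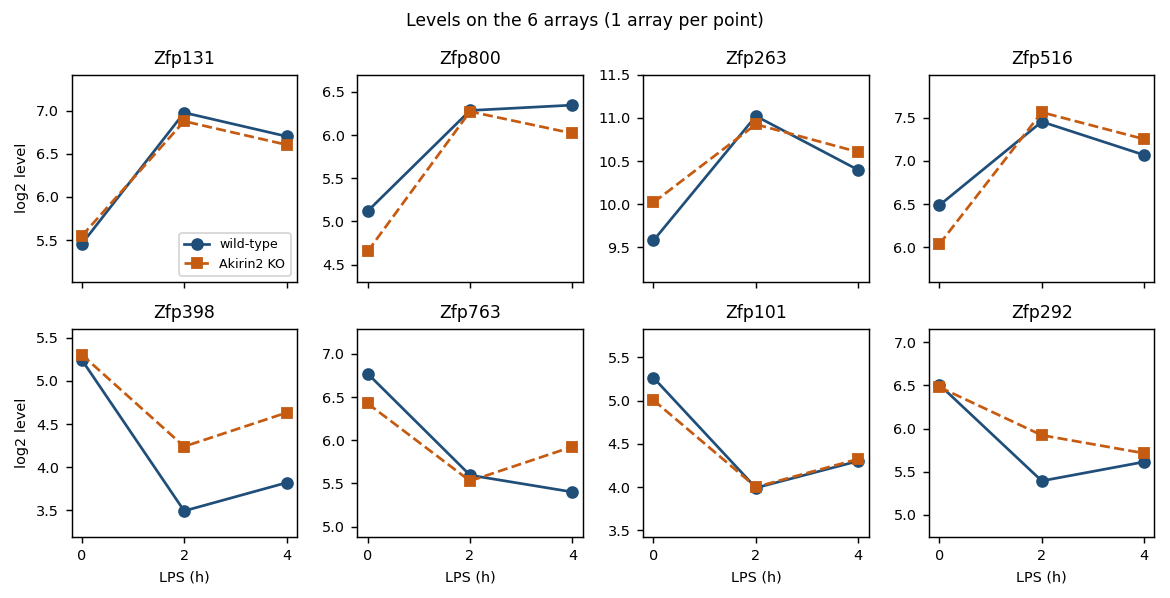
Log2 level of 4 Zfp genes that rose (upper row) and 4 that fell (lower row) at both times of LPS, against hours of LPS, in wild-type (blue circles) and Akirin2 KO (orange squares), with 1 array per point. All panels span the same 2.4 log2 units. The 0 h point of each genotype lies below its LPS points in the upper row and above them in the lower row, and the genotypes part most for Zfp398 after LPS.

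A further 6 genes fell at 2 h alone by the test. Zfp809, which silences retroviral DNA through TRIM28, read 4.84, 4.12 and 4.78 in wild-type cells and 4.56, 3.96 and 4.24 in KO. Zfp932, which binds endogenous retroviruses, read 5.56, 4.83 and 5.21 in wild-type against 5.41, 4.78 and 5.28 in KO. Both had their lowest level at 2 h in each genotype, with coefficients of -0.66 and -0.68 at 2 h and -0.19 and -0.24 at 4 h. Neither passed without the wild-type 0 h array (-0.69 and -0.61). The Zfp809 call was also lost with arrays centred (-0.59), quantile normalization again (-0.63) and a trend and robust prior. Its probe set is of a class that may cross-hybridise, and the call was absent without such probe sets. Zfp251, at 6.54, 5.47 and 6.01 in wild-type cells and 6.25, 5.44 and 6.08 in KO, had the same course (-0.94 and -0.35). The times share their 0 h arrays.

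At 4 h Zfp469, a gene of brittle cornea syndrome linked to collagen, read 4.45, 4.16 and 3.99 in wild-type against 5.27, 4.93 and 4.26 in KO, so that it declined in both while KO stayed above wild-type at each time. Zfp52 read 8.01, 8.26 and 7.66 in wild-type cells and 8.31, 8.18 and 7.42 in KO and was lowest on the 4 h arrays (-0.62, adjusted p = 0.0452). Zfp839 read 5.73, 5.14 and 4.77 in wild-type against 5.79, 5.13 and 5.27 in KO (4 h coefficient -0.74, adjusted p = 0.0221, and -0.65 without the wild-type 0 h array, adjusted p = 0.0576). The other genes that fell at 1 time or both (Zfp40, Zfp157, Zfp266, Zfp386, Zfp472, Zfp512, Zfp788 and Zfp825) had coefficients between -0.58 and -0.88 where they passed.

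Several genes of known function passed neither threshold. Zfp91, a ubiquitin ligase of the kinase NIK in non-canonical NF-kB signalling, read 8.55, 8.02 and 8.39 in wild-type cells and 8.45, 8.29 and 8.40 in KO. Zfp207, which binds the spindle checkpoint protein BUB3, read 7.38, 7.13 and 7.37 in wild-type against 7.47, 7.22 and 7.34 in KO. The RNA-binding Zfp106 (coefficients of -0.06 and -0.19 at 2 and 4 h), the splicing factor Zfp326 (0.26 and -0.07) and Zfp110, a partner of the p75 neurotrophin receptor (-0.27 and -0.30), stayed within 0.30 of 0. The imprinting factor Zfp57, the pluripotency marker Zfp42, Zfp335, Zfp395, Zfp423 and Zfp521 did not reach the level cut.

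The promoters of the genes with the largest coefficients at both times are printed below because they let the opposite courses be set beside the DNA at the start of each gene. They are the 3 largest mean coefficients each way among genes past both thresholds, where Zfp516 was not used, and come from RefSeq (GRCm38.p6). Each runs 5′ to 3′ from 250 bases before to 50 bases after a transcription start. Capitals mark matches, on either strand, to a kB site (the motif of NF-kB, searched by its consensus) or to GGGCGG, the GC box bound by SP and KLF factors, which themselves bind through C2H2 fingers.
Zfp800, chr6:28261875-28262174, minus strand: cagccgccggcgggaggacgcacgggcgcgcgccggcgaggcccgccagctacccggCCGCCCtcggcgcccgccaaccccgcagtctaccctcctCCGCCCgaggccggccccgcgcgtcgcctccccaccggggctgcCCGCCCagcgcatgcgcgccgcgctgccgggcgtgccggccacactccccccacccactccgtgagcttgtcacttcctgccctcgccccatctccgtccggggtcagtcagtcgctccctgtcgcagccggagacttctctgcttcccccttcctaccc
Zfp131, chr13:119790409-119790708, minus strand: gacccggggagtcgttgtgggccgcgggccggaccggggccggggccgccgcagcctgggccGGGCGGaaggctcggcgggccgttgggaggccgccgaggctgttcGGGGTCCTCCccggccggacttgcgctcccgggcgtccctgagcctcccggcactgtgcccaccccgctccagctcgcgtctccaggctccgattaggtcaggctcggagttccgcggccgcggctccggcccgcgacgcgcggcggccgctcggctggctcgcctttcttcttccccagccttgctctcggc
Zfp263, chr16:3743849-3744148, plus strand: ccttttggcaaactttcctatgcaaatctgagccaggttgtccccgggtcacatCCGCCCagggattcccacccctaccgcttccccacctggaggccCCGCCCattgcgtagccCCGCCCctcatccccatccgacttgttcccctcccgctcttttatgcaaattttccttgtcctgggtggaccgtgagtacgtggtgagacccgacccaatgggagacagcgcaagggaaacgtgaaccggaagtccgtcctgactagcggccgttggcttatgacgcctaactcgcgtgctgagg
Zfp398, chr6:47835411-47835710, plus strand: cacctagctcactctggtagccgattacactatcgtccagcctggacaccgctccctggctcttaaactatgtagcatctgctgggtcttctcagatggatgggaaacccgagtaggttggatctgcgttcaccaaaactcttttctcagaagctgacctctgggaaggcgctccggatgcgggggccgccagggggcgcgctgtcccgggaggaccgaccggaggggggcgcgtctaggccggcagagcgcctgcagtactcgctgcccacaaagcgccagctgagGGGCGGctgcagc
Zfp763, chr17:33033332-33033631, minus strand: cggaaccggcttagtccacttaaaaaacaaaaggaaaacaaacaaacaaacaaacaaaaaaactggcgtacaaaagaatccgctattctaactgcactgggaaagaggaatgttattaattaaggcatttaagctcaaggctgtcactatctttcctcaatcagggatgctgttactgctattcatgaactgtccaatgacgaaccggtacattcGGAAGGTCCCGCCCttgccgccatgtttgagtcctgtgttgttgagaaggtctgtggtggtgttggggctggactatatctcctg
Zfp101, chr17:33394588-33394887, minus strand: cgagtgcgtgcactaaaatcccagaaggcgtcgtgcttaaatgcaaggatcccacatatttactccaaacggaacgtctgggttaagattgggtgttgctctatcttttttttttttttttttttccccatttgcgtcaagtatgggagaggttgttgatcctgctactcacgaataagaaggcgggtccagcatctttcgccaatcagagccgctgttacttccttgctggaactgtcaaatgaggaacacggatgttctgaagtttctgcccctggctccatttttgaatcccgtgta
The upper 3 sequences belong to genes that rose and the lower 3 to genes that fell.

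The 3 promoters of genes that rose were rich in G and C (77.3%, 77.7% and 60.0% of bases for Zfp800, Zfp131 and Zfp263), and held 3, 1 and 3 GC boxes. Those of Zfp398, Zfp763 and Zfp101 had 63.0%, 44.0% and 45.7%, with 1, 1 and 0 GC boxes. A kB match lay 143 bases before the start of Zfp131, in a gene that rose, and 35 bases before that of Zfp763, in a gene that fell, where it overlaps the GC box. RefSeq windows were matched for 104 of the 127 genes (126 windows of 300 bases). A kB match stood in 10.3% of these, in 10.3% of the windows of tested genes and in 8.46% of all windows, and a GC box in 55.6%, 57.9% and 35.7%. A GC box stood in 8 of 9 windows of genes that rose (7 genes) and in 8 of 19 windows of genes that fell (16 genes) at either time. Windows of 1 gene are not independent. Zfp131 and Zfp800 count more than once with a box, and Zfp788, Zfp809 and Zfp932 more than once without one. The other motifs searched were AP-1 (TGANTCA, in 5.56% of the group's windows and 5.84% of those of tested genes), CRE (TGACGTCA, 2.38% and 2.80%), the E box (CACGTG, 8.73% and 9.39%), the interferon element ISRE (1.59% and 3.14%) and the core of the ZNF143 motif (ACTACAA, 4.76% and 3.90%). A match is a description of the letters, not a site, and an absence says only that the letters are not in this window.

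LPS steps were set side by side in the genotypes, which share no array. At least 2-fold higher at 2 h in wild-type were Zfp131, Zfp263, Zfp658 and Zfp800 (4 genes, where 2.26% of all tested genes passed), and in KO Zfp131, Zfp516 and Zfp800 (3 genes, 2.44%). At least 2-fold lower at 2 h were 11 genes in wild-type (2.19% of all) and 3 in KO, Zfp101, Zfp398 and Zfp563 (0.905%). At 4 h the wild-type counts were 2 higher (3.72%), Zfp131 and Zfp800, and 6 lower (4.75%). Those of KO were 3 higher (4.07%), Zfp131, Zfp516 and Zfp800, and 3 lower (2.47%), Zfp462, Zfp469 and Zfp934. These single-array differences have no test. Zfp658 entered the group through the wild-type 2 h array alone and Zfp934 through the KO 0 h array alone. Their steps from or to those arrays are therefore no support for a change of the group. Every wild-type step rests on the wild-type 0 h array. With arrays centred, 5 genes were past 2-fold upwards and 6 downwards in wild-type at 2 h, then 2 and 4 at 4 h. Shares of all tested genes were not worked out for these centred counts, so they are no result about the group.

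The median step of the group was -0.27 at 2 h and -0.29 at 4 h in wild-type cells, and -0.08 and -0.01 in KO. For all tested genes the medians were -0.07 and -0.06 in wild-type against 0.00 and 0.02 in KO. With arrays centred the genotypes came close: -0.12 and -0.12 in wild-type against -0.10 and -0.11 in KO, while all genes had 0.08 and 0.10 in wild-type cells and -0.02 and -0.08 in KO. Across the 127 genes the KO step correlated with the wild-type step with a Pearson r of 0.69 at 2 h and 0.51 at 4 h, where all tested genes gave 0.71 and 0.75. These are descriptions across genes, which are not independent, and the genes of a step share its arrays. The KO step lay above the wild-type step for 75.6% of the group at 2 h and 73.2% at 4 h, against 61.7% and 61.8% of all genes. With arrays centred the shares were 59.1% at 2 h and 48.8% at 4 h, against 40.7% and 34% of all genes, so that most genes of the group no longer lay above at 4 h.

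**Figure D4:**
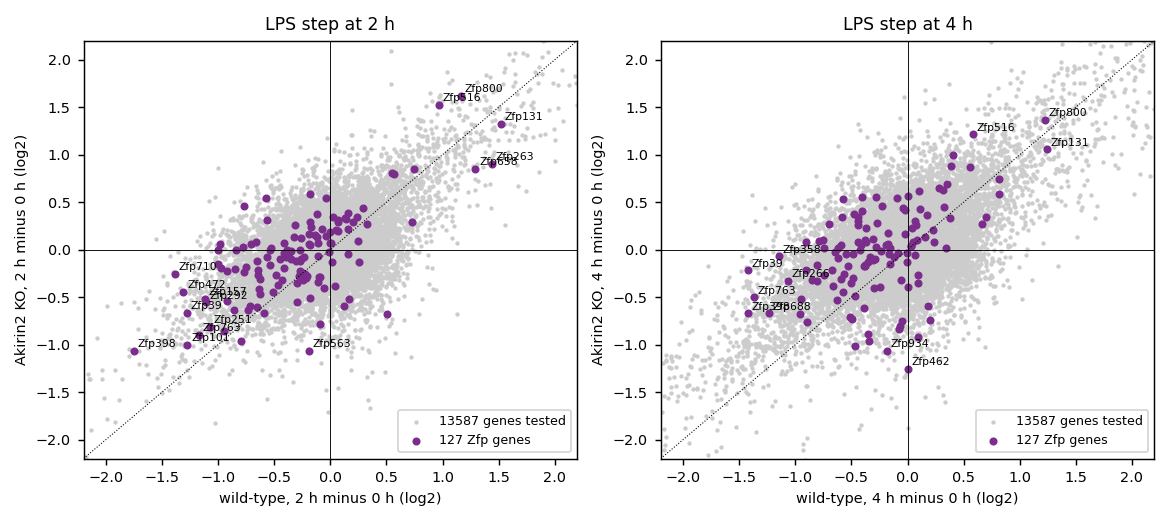
Log2 difference from 0 h in wild-type (x axis) and Akirin2 KO (y axis) at 2 h (left) and 4 h (right) for the 127 Zfp genes (purple) and the 13587 tested genes (grey; those beyond 2.2 either way lie outside the axes), with 1 array per condition. Zfp131 and Zfp800 stand at the upper right in both panels and Zfp398 at the lower left, and 75.6% and 73.2% of the purple points lie above the dotted line of equal steps (59.1% and 48.8% with arrays centred, which is not drawn).

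A difference in the LPS step between genotypes was not detected for any of the 127 genes by limma (0 higher and 0 lower, beside 0.00736% and 0.0221% of all tested genes). An unadjusted p under 0.05 was seen for 27 of them and for 1739 of all genes, and limma with a trend and robust prior called 2, Zfp790 and Zfp84. Zfp790 read 5.35, 4.58 and 4.78 in wild-type against 4.77, 5.23 and 5.30 in KO, so that the genotypes moved in opposite directions (interaction 1.17, SE 0.25, adjusted p = 0.0994). Its neighbour Zfp84 read 5.75, 5.18 and 5.35 in wild-type cells and 4.66, 5.2 and 5.21 in KO (interaction 1.03, adjusted p = 0.135). Zfp84 differed mainly at 0 h, and the wild-type 0 h array, which stands apart, was the highest of the 6 for both genes. By size alone, the KO step exceeded the wild-type step 2-fold or more for Zfp84, Zfp608, Zfp710, Zfp790 and Zfp810 at 2 h (5 genes, 1.07% of all) and for Zfp39, Zfp358 and Zfp790 at 4 h (3 genes, 2.05%). It was smaller by as much for Zfp957 at 2 h (1 gene, 0.67%) and for Zfp462 and Zfp563 at 4 h (2 genes, 1.10%). Zfp608 entered the group through the wild-type 0 h array alone, and Zfp957 through the wild-type 2 h and KO 0 h arrays. The cut favoured the direction of their differences. Centring moved the median interaction of all genes by -0.21 and gave 1 gene above and 2 below at 2 h, and 0 above and 7 below at 4 h. For these centred counts too, shares of all tested genes were not worked out, so they are no result about the group.

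Constant genotype differences were few. Over the 3 times 2 genes of the group were higher in KO (1.57%), Zfp93 and Zfp820, and 0 lower, where 0.891% and 1.06% of all tested genes were (limma). An unadjusted p under 0.05 was seen for 16 of the group and 2091 of all genes, and limma with a trend and robust prior called 5 higher (Zfp40, Zfp93, Zfp462, Zfp469 and Zfp820) and 1 lower (Zfp319). Zfp93 was near background in wild-type, at 3.21, 3.16 and 3.15, and read 4.43, 4.03 and 3.63 in KO. Zfp820 read 3.50, 3.32 and 3.45 in wild-type against 4.68, 4.17 and 3.93 in KO. In both the KO level declined towards the wild-type level with LPS, the coefficients were 0.86 (SE 0.16, adjusted p = 0.0365) and 0.84 (SE 0.15, adjusted p = 0.0363), and neither had another probe set above the floor. Both entered the group through the KO 0 h array alone, so they are no support for a difference of the group, and with the level cut on the mean over all arrays 0 genes differed either way. The Zfp93 probe set is of a class that may bind related transcripts. Neither passed with arrays centred, and without the wild-type 0 h array the count was 9 higher (7.09%, where 2.72% of all were), Zfp93 and Zfp820 among them, and 0 lower (2.16% of all).

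Zfp462, a gene of chromatin control in pluripotent cells, had the largest genotype coefficient of the group without passing the threshold. It read 5.63, 5.67 and 5.63 in wild-type cells and 7.18, 6.79 and 5.93 in KO, flat in wild-type and declining in KO to near the wild-type level at 4 h (0.99, SE 0.22, adjusted p = 0.0647). At 0 h KO was at least 2-fold above wild-type for Zfp93, Zfp462 and Zfp820 (3 genes, 0.78% of all) and below it for Zfp84 (1 gene, 1.15%). At 2 h Zfp462 alone was above (1 gene, 0.486%) and 0 were below (0.464%), and at 4 h 0 were 2-fold apart either way (0.832% and 0.618%). Beside these differences, the summed level of 11 mesothelial and fibroblast markers was 9.79 to 9.97 in wild-type and 9.09 to 9.38 in KO, with 10 above the floor and Lum and Msln near background. Between the 3′ and 5′ control probe sets of Actb, which track RNA integrity, the log2 difference was 4.09 to 4.22 in wild-type and 4.36 to 4.64 in KO. For Gapdh it was 4.33 to 4.42 and 4.34 to 4.52. Both were therefore large, at least 4.09 log2 units, on every array of both genotypes. Their part in the genotype differences was not tested.

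Many of these genes lie next to each other. By gene order in the RefSeq annotation, 59 of the 127 stood in 20 groups within 5 protein-coding genes of another, and 23 lay on chromosome 17. The largest group, 13 genes on chromosome 17 from Zfp51 to Zfp40, had 11 coefficients below 0 at 2 h and 11 at 4 h, between -0.63 and 0.37 at 2 h, and of these Zfp40 fell at both times and Zfp52 at 4 h. A second group there, Zfp871, Zfp799, Zfp472, Zfp952, Zfp763 and Zfp563, had 5 of 6 below 0 at each time. Of all 127 genes 70.9% lay below 0 at 2 h and 69.3% at 4 h, beside 56.4% and 53.2% of all tested genes. Whether neighbours moved together more than other genes of the group was not tested. On chromosome 18 Zfp516 rose at both times and its neighbour Zfp407 at 4 h, and on chromosome 7 the neighbours Zfp658 and Zfp719 both rose at 2 h. Zfp658 and Zfp719 entered the group through LPS arrays alone, so their rises are no support for a shared course of neighbours. Zfp719 read 4.22, 4.96 and 4.50 in wild-type against 3.90, 4.74 and 4.54 in KO (0.80, adjusted p = 0.0213). On chromosome 6 Zfp398, Zfp212 and Zfp746 all lay below 0. Neighbours can be near copies, and a probe set may then read more than 1 of them. Of the 127 genes 19 were on probe sets of a class that may cross-hybridise.

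**Figure D5:**
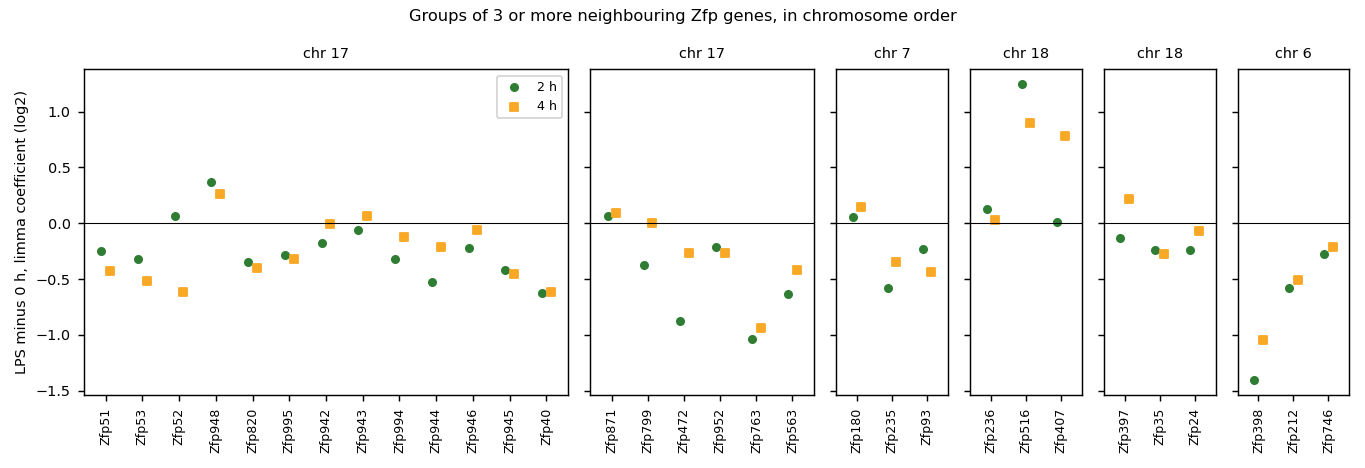
LPS coefficients (log2, limma over both genotypes) at 2 h (green circles) and 4 h (yellow squares) for the 6 groups of at least 3 neighbouring Zfp genes, in chromosome order; the vertical axis is shared. Coefficients lie below 0 for 11 of 13 and 5 of 6 genes in the chromosome 17 groups at each time, and Zfp516 and Zfp407 stand above 0 in a chromosome 18 group.

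Genes that followed each other over the 6 arrays were named for the largest rise and fall at 4 h. The genes most like Zfp800 were Zfp131 (Pearson r 0.96), Zfp948 (0.95) and Zfp516 (0.95), and those most like Zfp398 were Zfp277 (0.96), Zfp39 (0.96) and Zfp617 (0.96). Zfp39 read 6.06, 4.78 and 4.64 in wild-type cells and 5.81, 5.15 and 5.59 in KO, and passed no LPS threshold. Such values over 6 arrays follow mostly the step from 0 h to LPS and are a description.

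Other zinc finger families past the same level cut were set beside the group, without a test between them. Of all genes past that cut 7% rose and 4.81% fell at 2 h, and 13.4% and 12.4% at 4 h. Of 23 Zbtb genes, which pair C2H2 fingers with a BTB domain, 2 rose (8.7%, Zbtb7a and Zbtb11) and 4 fell (17.4%) at 2 h, and 1 rose (4.35%) and 6 fell (26.1%) at 4 h. Zbtb16, the PLZF transcription factor, read 6.19, 5.11 and 3.65 in wild-type against 6.14, 4.89 and 4.26 in KO (4 h coefficient -2.21), a larger fall than any in the Zfp group. Of 12 Klf and Sp genes, Klf3 and Klf7 rose and Klf4 and Klf9 fell at both times, and Klf13 fell at 2 h. Of 9 Zscan and Zkscan genes 0 rose and 1 fell at each time (Zscan26, then Zkscan14). Of 7 Zc3h genes, whose CCCH fingers bind RNA, Zc3h12a, the RNase Regnase-1, and Zc3h12c rose at both times (2.01 and 2.98 at 2 h), above any rise in the Zfp group, and Zc3h4 fell at 2 h.

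The partners through which KRAB zinc finger proteins act fell about as often as all tested genes at 2 h. Of 35 listed corepressor genes 30 were in the annotation and tested, and 0 rose and 1 fell at 2 h (3.33%, beside 2.89% of all tested genes), and 0 rose and 4 fell at 4 h (13.3%, beside 7.61%). Trim28 read 8.66, 8.20 and 8.55 in wild-type cells and 8.69, 8.46 and 8.78 in KO and passed no threshold (-0.35 and -0.01), and neither did Setdb1 (-0.28 and -0.11). Atf7ip, the stabilising partner of SETDB1, read 6.08, 4.49 and 4.86 in wild-type against 5.81, 4.85 and 4.79 in KO and fell by 1.28 at 2 h (adjusted p = 0.00419) and 1.12 at 4 h. The DNA methyltransferase genes Dnmt1 (-1.12) and Dnmt3a (-0.86) and the NuRD subunit gene Gatad2b (-0.57) fell at 4 h. Dnmt3a was also higher in KO over the 3 times (0.70, adjusted p = 0.0339).

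The level cut let in genes through the group in which they were high, and this bears on the counts. Of the 127 genes 85 passed it on all 6 arrays and 11 on 1 array only. Those that passed on 0 h arrays alone numbered 13, of which 3 fell at 2 h (Zfp157, Zfp688 and Zfp788) and 2 at 4 h (Zfp688 and Zfp788). On LPS arrays alone 9 passed, of which 2 rose at 2 h (Zfp658 and Zfp719) and 1 at 4 h (Zfp598). The cut favoured the direction of these calls. With the cut on the mean over all arrays, 104 genes remained, with 7 higher and 11 lower at each time. Just inside the cut lay Zfp709, Zfp963, Zfp608, Zfp277 and Zfp93, by 0.00 to 0.12, and just outside it Zfp579, Zfp287, Zfp74, Zfp623 and Zfp787. With the cut at the array median 268 genes entered, with 8 higher and 14 lower at each time, which adds 1 gene each way at 4 h and 0 at 2 h. Of all tested genes, which share that floor, 3.96% rose and 2.89% fell at 2 h, and 7.76% and 7.61% at 4 h. The share of the 268 that fell lay above this at 2 h and below it at 4 h. Of the 22 genes past the threshold at 2 h, 12 had a second probe set above the floor, which had the same sign for 10 and over 50% of the size for 5. At 4 h it had the same sign for 10 of 13 and over 50% of the size for 6.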

How the data were processed

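Gene expression was measured on 6 arrays, 1 for each genotype and time. The deposited values are log2 levels of probe sets. Per the submitters' processing notes the tool was RMA, for which no version or probe definition was at hand. Probe sets with 1 gene symbol (34958) were used; 932 had several symbols and 9211 were unnamed here. The small number of arrays limits the precision.

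Each gene was represented by its probe set of highest mean, and 13587 genes reaching an array median were tested. limma 3.58.1 in R 4.3.3 (lmFit, eBayes, Benjamini-Hochberg over all tested genes, 0.05) fitted time and genotype additively (2 residual degrees of freedom). A fit with genotype by stimulation had 1. LPS p-values measure how alike the step was in both genotypes, and genotype p-values whether a difference recurred at each time, without any spread between animals. Without the wild-type 0 h array this does not hold, since 0 h then has 1 array. The fits were checked on simulated data. Single-array differences were counted at 2-fold without a test.

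The genes and lists (corepressors, zinc finger families, cell markers, motifs) were chosen with earlier results of these data known. Named genes are up to 12 past the threshold each way, the 5 largest single-array differences each way, genes near the level cut, and members of known role. Names and gene order came from RefSeq (GRCm38.p6). Protein features were not analysed here. Python 3.11.15 was used for counts.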

Additional observations from a re-analysis of the deposited data

How the results depend on the processing

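Of 45 gene calls 13 passed under every alternative run, among them Zfp131, Zfp275 and Zfp800 at both times, Zfp101 at both times and Zfp263, Zfp658 and Zfp251 at 2 h. No call changed sign. Zfp658 entered the group through an LPS array alone, and Zfp688, kept at 4 h, through 0 h arrays alone. With probe sets of a gene averaged, 8 genes fell at 2 h and 6 at 4 h, and with arrays centred 8 and 7. The count higher at 4 h than at 2 h was 0 with probe sets averaged, quantile normalization again or centring, 3 with a trend and robust prior, and 6 without the 0 h arrays. The count lower was 2 with that prior and 1 without the 0 h arrays. Higher in KO were 0 with a floor at the 75th percentile, probe sets averaged, quantile normalization again, centring or without the 2 h arrays, 1 without cross-hybridising probe sets, 5 with a trend and robust prior, 4 without the 4 h arrays, and 9 without the 0 h arrays. Lower in KO was 1 with a trend and robust prior and without the 2 h arrays. The interaction counted 2 higher with that prior. The counts of this section stand without the shares over all tested genes. They show how the group's counts move with the setting, and are no result about the group by themselves. At 1.5-fold the counts higher and lower were 7 and 36 in wild-type at 2 h, and 6 and 27 at 4 h, and in KO they were 8 and 16, then 11 and 18. Every wild-type step rests on the wild-type 0 h array, which stands apart. KO against wild-type gave 9 and 11, 10 and 1, and 8 and 2 at 0, 2 and 4 h, and the response difference 20 and 5 at 2 h and 29 and 9 at 4 h. At 2-fold with probe sets averaged, 5 and 1 genes were lower in wild-type at 2 and 4 h, 1 and 1 in KO, and 1 higher in KO at 4 h; KO against wild-type gave 0 and 0 at 0 h and 0 higher at 2 h, and the response difference 1 and 0, then 0 and 1. With quantile normalization again, 5 and 5 were lower in KO, 6 and 0 differed at 0 h, and the response difference gave 3 and 2, then 1 and 4. With arrays centred, 6 were lower in wild-type at 2 h, 5 in KO at 4 h, 5 and 0 differed at 0 h, and the response difference gave 1 and 2, then 0 and 7. Without cross-hybridising probe sets 0 were lower in KO at 0 h. The causes were not tested. No paired analysis by replicate number was possible because each condition has 1 array and the labels carry no such numbers; the additive fit itself compares times within genotypes and genotypes within times.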
